A study of Homo sapiens with 12 samples.

Results

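The clustered replication-dependent histone genes are the 66 genes of the deposited table whose symbols name a cluster member: H1-1 to H1-6, or H2AC, H2BC, H3C or H4C followed by a number. They were chosen by symbol alone, pseudogene names left out, from 61806 genes. They hold 6 genes for the linker histone H1 and 16, 17, 13 and 14 genes for the core histones H2A, H2B, H3 and H4. On genome build hg38, 55 lie on chromosome 6 between positions 25726063 and 27893891, and 11 lie on chromosome 1 between 149782689 and 149887965.

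RNA was measured in TPC-1 and K1, established cell lines of human papillary thyroid cancer labelled as wild type, 24 h after transfection with siRNA against TRIM35, a member of the tripartite motif family, or with a negative control siRNA (NC). The 4 groups were TPC-1 with NC, TPC-1 with TRIM35 siRNA, K1 with NC and K1 with TRIM35 siRNA, with 3 libraries each, and all cells had been transfected. The labels do not say whether the 3 libraries of a group came from separate cultures, so a p-value here speaks of library-to-library spread, part of which may be technical. Library totals ran from 16705044 to 22928861 counts.

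Cells make most of their histones while they copy their DNA, from genes that lie in clusters and have no introns in their classical transcripts. The classical mRNA ends just after a short hairpin, the stem-loop, which the protein SLBP binds, and it carries no poly(A) tail. Some cluster genes also give longer, polyadenylated mRNAs, a form known from differentiated cells and from cell lines. Core histones H2A, H2B, H3 and H4 form the nucleosome, and H1 binds the DNA between nucleosomes.

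The 5′ flanks of the member of each class with the highest mean FPKM over all 12 libraries are shown because neighbouring members share them and because their motifs sort by histone class. Each sequence is RefSeq's for GRCh38.p14, on the gene's own strand, ends 1 base before the RefSeq start, and is cut where it would enter another gene. Capitals mark 3 motifs found on either strand. One is TATAAA, the element that positions the start of transcription. Another is CCAAT, bound by factor NF-Y. The last is ATTTGCAT, the octamer bound by POU factors such as POU2F1. Where motifs overlap, each was counted.
H1-2, chr6:26056471-26056720, minus strand: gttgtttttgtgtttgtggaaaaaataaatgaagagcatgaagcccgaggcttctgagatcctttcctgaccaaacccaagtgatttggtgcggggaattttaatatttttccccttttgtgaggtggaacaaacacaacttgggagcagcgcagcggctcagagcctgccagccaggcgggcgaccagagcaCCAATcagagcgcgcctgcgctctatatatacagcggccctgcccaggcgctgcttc
H2AC6, chr6:26123927-26124171, plus strand: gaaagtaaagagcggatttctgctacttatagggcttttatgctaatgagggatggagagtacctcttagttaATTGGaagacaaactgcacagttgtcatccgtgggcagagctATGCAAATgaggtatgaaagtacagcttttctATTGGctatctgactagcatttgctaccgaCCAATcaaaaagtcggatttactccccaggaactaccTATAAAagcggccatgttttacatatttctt
H2BC21, chr1:149886683-149886917, minus strand: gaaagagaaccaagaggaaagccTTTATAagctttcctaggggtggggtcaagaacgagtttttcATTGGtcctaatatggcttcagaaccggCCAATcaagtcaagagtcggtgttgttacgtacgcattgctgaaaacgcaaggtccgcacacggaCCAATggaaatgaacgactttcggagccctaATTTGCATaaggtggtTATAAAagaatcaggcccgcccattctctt
H3C10, chr6:27809801-27810050, plus strand: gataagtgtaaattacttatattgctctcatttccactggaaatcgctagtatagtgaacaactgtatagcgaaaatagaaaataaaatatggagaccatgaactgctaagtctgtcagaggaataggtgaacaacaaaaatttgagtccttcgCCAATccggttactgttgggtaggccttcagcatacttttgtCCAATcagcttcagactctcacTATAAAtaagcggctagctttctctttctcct
H4C9, chr6:27139032-27139281, plus strand: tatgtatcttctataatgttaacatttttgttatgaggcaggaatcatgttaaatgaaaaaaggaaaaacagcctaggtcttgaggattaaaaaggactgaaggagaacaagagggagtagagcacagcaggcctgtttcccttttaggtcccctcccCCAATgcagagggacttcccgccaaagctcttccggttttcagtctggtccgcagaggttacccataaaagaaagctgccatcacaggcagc

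RefSeq promoters could be matched by symbol for 61 of the 66 members. Over the 250 bases before the start, TATAAA stood in 42 of 61 members (68.9%), against 10.8% of 34943 RefSeq windows of that length. CCAAT stood in 52 (85.2%, against 32.0%): in every matched H1, H2A, H2B and H3 member, and in 3 of 12 H4 members. ATTTGCAT stood in 25 (41.0%, against 1.63%), and these were 14 of 17 H2B and 11 of 15 H2A members, with none among H1, H3 and H4. A match is a description of the letters in the window. Members often lie head to head: 13 pairs on opposite strands start within 1000 bases of each other. The 235 bases printed for H2BC21 are the whole gap between it and H2AC20, so this pair shares 1 flank. The starts of H2BC8 and H2AC8 are 232 bases apart, and those of H2BC4 and H2AC6 218 bases, all by the deposited coordinates. The RefSeq start of H2AC6 lies 27 bases downstream of its deposited start.

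The second set of sequences is the 3′ stem-loop, shown because it is the feature that sets these mRNAs apart and because the exons run on past it in several members. In the GENCODE 29 models, on hg38, the 16-base hairpin is printed with 5 bases on each side, and capitals mark the paired stem.
H2BC21, chr1:149886188-149886203: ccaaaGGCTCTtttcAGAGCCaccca
H2AC6, chr6:26124669-26124684: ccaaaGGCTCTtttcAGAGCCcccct
H2BC5, chr6:26158587-26158602: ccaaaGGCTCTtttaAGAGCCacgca
H2AC8, chr6:26217417-26217432: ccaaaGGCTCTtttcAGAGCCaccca
H2BC8, chr6:26216218-26216233: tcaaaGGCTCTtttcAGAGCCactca
H4C9, chr6:27139654-27139669: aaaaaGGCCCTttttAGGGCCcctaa
H3C10, chr6:27810516-27810531: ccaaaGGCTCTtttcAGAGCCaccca

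A hairpin with GG at its start, a perfect stem of 6 base pairs and a loop of 4 bases that begins TT was found after the stop codon of 24 of 62 members held by GENCODE 29. All 24 were among the 30 members whose model has exon sequence past the stop codon, and the models of the other 32 have none. The 19622 other coding genes were told apart by gene identifier only, so histone genes, and members under another identifier, were not removed from them. Of these 19622 genes, 95 (0.484%) held such a hairpin anywhere in a transcript. Only 4 different hairpins occurred, and the most frequent, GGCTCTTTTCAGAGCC, stood in 13 members. Among these 13, the hairpin counted for H2BC15 lies at chr6:27865778-27865793. That is past the deposited end of H2BC15 (27855709) and inside the deposited H2AC16 (27865317 to 27865798). It was reached through the longer GENCODE 29 model of H2BC15, so the counts of 24 and 13 include a hairpin placed in H2AC16. Exon sequence ran on for 1729 bases past the stem-loop in the model of H2BC21, 1128 bases in H2AC6 and 414 in H2BC5, and stopped 51 bases past it in H2AC8. The deposited exonic sizes of the members run from 386 to 4265 bases, and 11 exceed 1000.

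The classical transcripts have no poly(A) tail, so the level at which they appear depends on how RNA was selected, which is not given in the sources used here. Of 25 other RNAs without a poly(A) tail, 9 had no count in any library, and 3 entered the test. RN7SL1, the signal recognition particle RNA, varied between libraries of 1 group. Its FPKM (counts per kilobase of exon, scaled to library total) was 68.3, 44.3 and 34.3 in TPC-1 NC libraries 1, 2 and 3, and 82.4, 63.0 and 37.3 in TPC-1 siRNA libraries 1, 2 and 3. In K1 it was 72.8, 28.4 and 10.8 in the NC libraries and 19.8, 11.4 and 50.9 in the siRNA libraries. K1 NC 1 and K1 siRNA 3 were thus the highest K1 libraries. Its part in the histone values below was not tested.

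The targeted gene came first as a check of the labels. TRIM35 stood at 2.86, 2.91 and 3.06 FPKM in TPC-1 NC and at 2.34, 2.56 and 2.58 with siRNA. In K1 it stood at 1.51, 1.85 and 1.47 with NC and at 1.20, 1.49 and 1.53 with siRNA. The groups did not overlap in TPC-1 and overlapped in K1, and the log2 fold changes of -0.24 and -0.19 did not pass the edgeR quasi-likelihood test (adjusted p = 1 for both). The thyroid transcription factor PAX8 was present at 17.8 to 20.6 FPKM in TPC-1 and 95.5 to 129 in K1, whereas NKX2-1 had no count in any library and TG, the thyroglobulin gene, stayed at or under 0.19 FPKM. Summed marker levels stayed under 1 FPKM for leukocytes (0.15 to 0.89) and endothelium (0.06 to 0.14), and at 0.81 to 2.39 for fibroblasts.

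Most members were scarce. Between 39 and 56 of the 66 had a count in any 1 library, 19 reached a group mean of at least 1 FPKM, and 3 (H1-6, H2AC1 and H2BC1) had no count anywhere. The edgeR filter on low counts kept 23 members among 17447 genes, of which 6 reached the filter level of 0.54 CPM (counts per 1000000 in the library) in 3 libraries of K1 only and 4 in 3 libraries of TPC-1 only. The 43 others had group means of at most 1.15 FPKM, and of at most 0.672 over all 12 libraries. In bulk RNA, fewer cells making a message and less message per cell cannot be told apart.

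The order of the members by level differed between the lines. In TPC-1 NC, H1-2, a somatic linker histone, was the most abundant at 12.2 ± 2.39 FPKM (SD, n = 3), ahead of the core histone genes H2AC6 at 6.99 ± 0.501, H2BC12 at 4.88 ± 0.825 and H2BC5 at 4.41. In K1 NC, H2BC21 led at 17.8 ± 4.91 FPKM, ahead of H1-2 at 6.59, H2AC6 at 6.35 and H2BC4 at 5.16. The spreads of H2BC12 and H2BC5 in TPC-1 overlapped, as did those of H1-2 and H2AC6 in K1. H2BC12 shares 74.1% of its 50-base words with other transcripts, so its level is uncertain. H2BC5 overlaps LARP1P1 on its own strand and another gene on the opposite strand, so its reads may be split or shared.

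By class, the sums over genes differed in direction between the lines. Summed H1 was 10.7 ± 2.06 CPM in TPC-1 NC and 5.31 ± 1.08 in K1 NC (SD, n = 3), 2.02-fold higher in TPC-1. H3 was 3.5 ± 0.602 and 1.20 ± 0.388, 2.92-fold higher in TPC-1. For both classes, every TPC-1 library lay above every K1 library, under either siRNA. H2B ran the other way, at 16.4 ± 1.00 CPM in TPC-1 NC and 54.9 ± 13.5 in K1 NC. H2A (16.8 and 16) and H4 (3.36 and 2.66) had NC ranges that overlapped.

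The H2B sum was carried by 1 gene. Without H2BC21 the H2B sum was 13.9 ± 1.10 CPM in TPC-1 NC and 15.3 ± 2.65 in K1 NC. H2BC21 held between 4.07% and 5.68% of all member counts in the 6 TPC-1 libraries and between 40.3% and 54.5% in the 6 K1 libraries. All 66 members together made 50.8 ± 5.35 CPM in TPC-1 NC and 80.1 ± 14.8 in K1 NC, and without H2BC21 they made 48.2 ± 5.43 and 40.5 ± 3.87. A longer gene model gathers more counts, and that of H2BC21 has 2224 exonic bases, so these sums and shares weight it more. Summed FPKM, which divides by exonic size, was 70.0, 62.7 and 54.4 in TPC-1 NC and 63.2, 64.0 and 79.2 in K1 NC, so the groups overlapped. The H2B sum in FPKM was 23.3, 21.6 and 19.15 in TPC-1 NC and 33.4, 35.9 and 49.5 in K1 NC, without overlap.

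**Figure D1:**
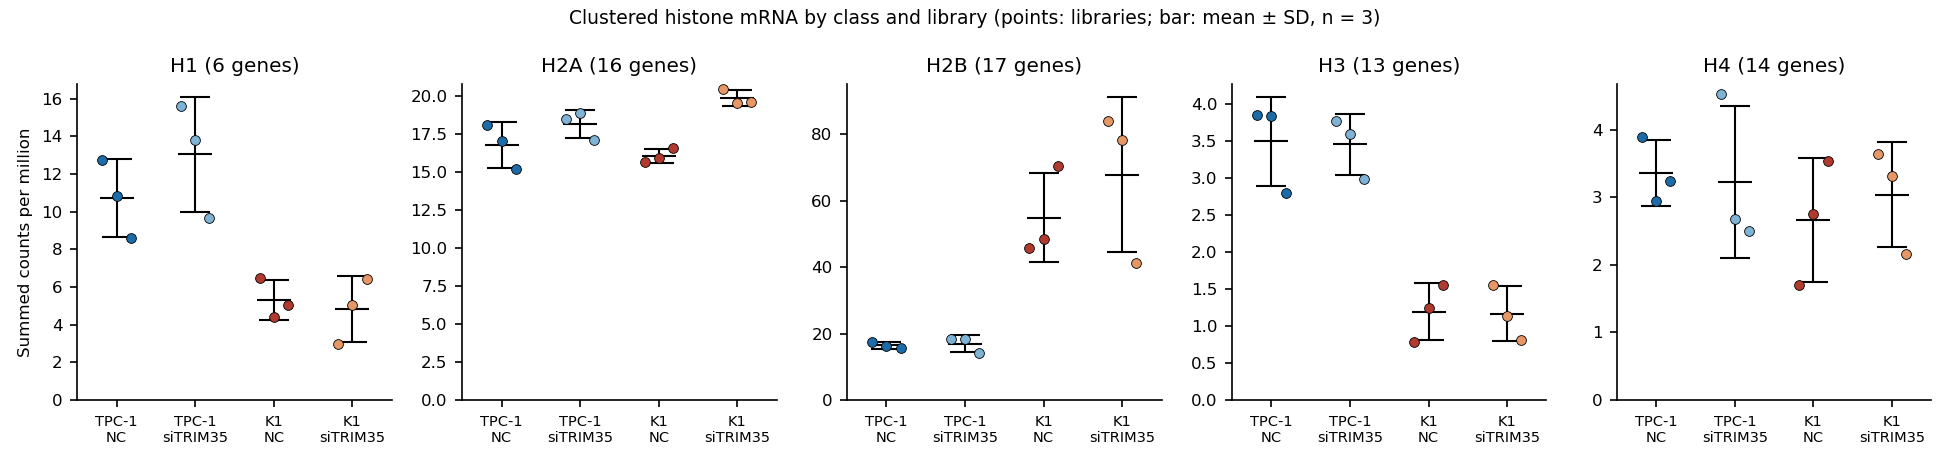
Summed CPM (y axis, from 0) of the members of each histone class in every library, for the 4 groups on the x axis; points are libraries, bars the mean ± SD of 3 libraries. H1 and H3 are lower in all 6 K1 libraries than in all 6 TPC-1 libraries, and H2B goes from 16.4 in TPC-1 NC to 54.9 in K1 NC.

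The question of how far the lines differ was asked of the NC libraries first. In K1 NC against TPC-1 NC, 7 of the 23 tested members were higher, 7 were lower and 9 did not pass the edgeR quasi-likelihood test at an adjusted p of 0.05. That is 60.9% called, where 67.9% of all 17447 genes were called (35.8% higher, 32.1% lower), so the share is near the background. Among the calls, H2AC18, H2AC19, H2BC8 and H4C9 (higher) reached the filter level in 3 libraries of K1 only. H1-4, H2BC15, H3C10 and H4C5 (lower) did so in TPC-1 only. These members entered the test through the line where they are high, so their calls are not independent of the filter. The members' median log2 fold change was -0.24, beside 0.06 over all genes. On chromosome 1, 4 of 6 tested members were higher and 1 lower; on chromosome 6, 3 of 17 were higher and 6 lower. The 9 that did not pass lay between -0.95 (H3C6) and 0.99 (H4C14, of whose 50-base words 97.5% are shared with other transcripts). By FPKM, 9 members lay higher in all 3 K1 NC libraries than in all 3 TPC-1 NC libraries and 5 lower, 60.9% beside 71.8% of all genes tested.

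H2BC21, which encodes an H2B and lies at chr1:149884459-149886682, showed the widest gap. Its FPKM was 1.10, 1.23 and 1.16 in TPC-1 NC and 1.14, 1.05 and 1.14 with TRIM35 siRNA. In K1 it was 14.8, 15.2 and 23.5 with NC and 27.6, 25.9 and 12.7 with siRNA. Every K1 library lay at least at 12.7 while no TPC-1 library passed 1.23. The log2 fold change in the NC libraries was 3.83 (SE 0.25, 14.2-fold, adjusted p = 2.15e-09 by edgeR), and in the siRNA libraries 4.2 (SE 0.25, 18.3-fold). Of its 50-base words, 8.11% are shared with other transcripts.

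H2AC20, an H2A gene across the 235-base gap, went the other way. Of its 50-base words, 30.5% are shared with other transcripts, so its level is less certain. Its FPKM was 4.06, 3.15 and 2.11 in TPC-1 NC and 1.24, 1.44 and 0.61 in K1 NC, and with siRNA 3.82, 3.54 and 2.80 in TPC-1 and 2.90, 0.96 and 0.98 in K1. The NC groups did not overlap, and K1 siRNA 1 stood above the lowest TPC-1 library. The log2 fold change was -1.55 (SE 0.45, adjusted p = 0.00682 by edgeR) in the NC libraries. In the siRNA libraries it was -1.19 (SE 0.44, adjusted p = 0.0243), a call lost without TPC-1 siRNA 1 or 2 or K1 siRNA 2 or 3 (adjusted p 0.05775 to 0.111), and the fold moved to -1.85 without K1 siRNA 1.

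The other head-to-head pairs with both genes tested behaved differently. H2AC8 and H2BC8, an H2A and an H2B gene on chromosome 6, were both higher in K1. H2AC8 stood at 1.89, 1.29 and 1.17 FPKM in TPC-1 NC, 1.46, 1.13 and 1.72 in TPC-1 with siRNA, 4.56, 3.36 and 3.71 in K1 NC, and 5.42, 5.32 and 5.74 in K1 with siRNA. H2BC8 stood at 1.11, 1.37 and 0.90, then 0.77, 0.99 and 1.09 in TPC-1, and at 3.21, 2.55 and 5.14, then 7.44, 7.66 and 3.75 in K1. Neither gene overlapped between the lines in any of the 12 libraries. The log2 fold changes in the NC libraries were 1.32 (SE 0.31) for H2AC8 and 1.56 (SE 0.38) for H2BC8 (edgeR adjusted p = 0.00132 and 0.00188). In the pair H2BC4 and H2AC6 neither gene passed, at 0.56 (adjusted p = 0.0548) and -0.24 (adjusted p = 0.125). H2BC4 passed under DESeq2 (0.60, adjusted p = 0.0430), and in all under 9 of the 21 alternatives.

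H2AC18 and H2AC19, a pair of H2A genes on chromosome 1 that encode the same protein, were also higher in K1. H2AC18 was at 0.10, 0.21 and 0.21 FPKM in TPC-1 NC and 3.11, 2.75 and 1.46 in K1 NC, and with siRNA at 0.40, 0.55 and 0.33 in TPC-1 and 1.9, 2.67 and 3.44 in K1. H2AC19 was at 0.10, 0.42 and 0.10 in TPC-1 NC and 1.72, 1.75 and 2.02 in K1 NC. No TPC-1 library reached any K1 library for either gene. The log2 fold changes were 3.67 (SE 0.56) and 2.98 (SE 0.57) by edgeR. The value for H2AC19 was 3.91 without TPC-1 NC 2, which holds most of its TPC-1 NC reads. How the authors' counting split reads between the near-identical copies is not known, so each single value is uncertain. H2BC18, an H2B gene on the same chromosome, was at 0.42, 0.12 and 0.46 FPKM in TPC-1 NC and 0.99, 0.77 and 1.17 in K1 NC (1.43, SE 0.55, edgeR adjusted p = 0.0311). It overlaps FCGR1A on the opposite strand and another gene on its own strand, so its reads may be split or shared.

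Among the H4 genes, H4C9 stood higher in K1 and H4C5 and H4C8 lower. H4C9 was at 0.55, 0.56 and 0.28 FPKM in TPC-1 NC and 0.77, 2.47 and 3.02 in K1 NC, a log2 fold change of 2.01 (SE 0.65, edgeR adjusted p = 0.0126). This call was lost without TPC-1 NC 3 (1.75, adjusted p = 0.0539) or K1 NC 3 (1.69, adjusted p = 0.0518). H4C5 was at 2.50, 1.49 and 0.67 in TPC-1 NC and 0.42, 0.11 and 0.44 in K1 NC (-2.33, SE 0.69), and its call was lost without TPC-1 NC 1 (-1.81, adjusted p = 0.0543). H4C8 was at 0.68, 0.31 and 0.46 and at 0.10, 0.21 and 0.36 (-1.26, SE 0.51, adjusted p = 0.0387), and its groups overlapped. Its call was lost without TPC-1 NC 1 or 3, without K1 NC 1 or 2, with library totals only, and with the replicate number as a block. H4C8 also overlaps an opposite-strand gene, and whether strand was used in counting is not given.

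The linker histones were lower in K1. H1-2 stood at 14.4, 12.5 and 9.69 FPKM in TPC-1 NC and 7.99, 5.23 and 6.55 in K1 NC, and with siRNA at 19, 15.8 and 11.1 in TPC-1 and 3.84, 6.35 and 7.98 in K1. All 6 TPC-1 libraries lay above all 6 K1 libraries. The log2 fold change was -0.98 (SE 0.28, 1.97-fold lower, edgeR adjusted p = 0.00561) in the NC libraries and -1.41 (SE 0.28) in the siRNA libraries. H1-4, another somatic linker histone, stood at 1.58, 1.20 and 1.26 in TPC-1 NC and 0.67, 0.23 and 0.30 in K1 NC (-1.80, SE 0.50), and its fold was -2.45 without K1 NC 1. Within TPC-1, H1-2 and RN7SL1 were both lowest in library 3 of each group. Over all genes tested, the deviations of TPC-1 NC 3 and siRNA 3 from their group means also correlated (0.406).

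H3C10, the H3 member with the highest mean FPKM over all 12 libraries, was also lower in K1. It stood at 0.82, 0.76 and 0.75 FPKM in TPC-1 NC, 0.91, 0.93 and 0.53 in TPC-1 with siRNA, 0.17, 0.14 and 0.29 in K1 NC and 0.14, 0.42 and 0.22 in K1 with siRNA. No K1 library reached a TPC-1 library, and the log2 fold change in the NC libraries was -2.05 (SE 0.47, edgeR adjusted p = 0.00119). H2BC15 also passed as lower (-1.19, adjusted p = 0.0464), but not under DESeq2 (adjusted p = 0.0592), with RLE factors, with library totals only, without the filter, or without TPC-1 NC 2 or 3, TPC-1 siRNA 1, K1 NC 1 or 2, or K1 siRNA 2 (adjusted p up to 0.180).

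**Figure D2:**
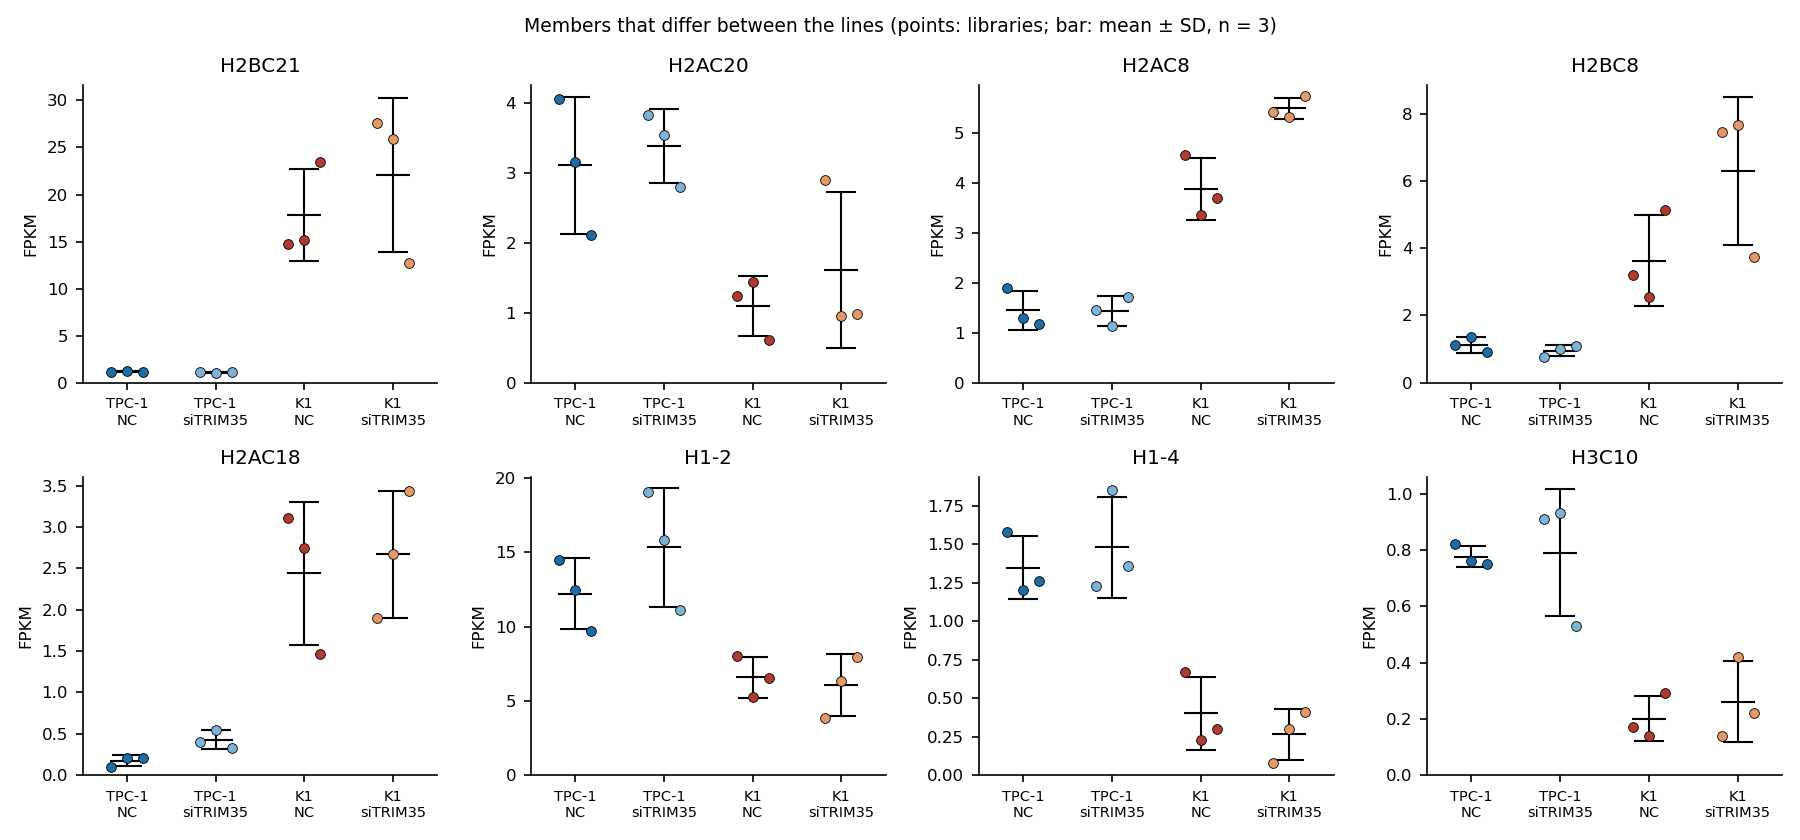
FPKM (y axis, from 0, own scale per panel) of 8 members in every library, by group on the x axis; points are libraries, bars the mean ± SD of 3 libraries. H2BC21, H2AC8, H2BC8 and H2AC18 are higher in all K1 libraries, H1-2, H1-4 and H3C10 lower, and H2AC20 is lower with 1 K1 siRNA library among the TPC-1 values.

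Of the 43 members not tested, 40 had a count, and 10 of these (25%) lay lower in all 6 K1 libraries than in all 6 TPC-1 libraries, while 0 lay higher. Over the 20843 genes with a count that were not tested, the shares were 0.988% lower and 4.06% higher; levels were not matched between the members and these genes. H3C8 was at 0.66, 0.67 and 0.89 FPKM in TPC-1 NC and was listed at 0 in all K1 NC libraries, H3C3 at 1.00, 0.46 and 0.68 against 0.18, 0.09 and 0, and H4C3 at 0.40, 1.10 and 1.36 against 0.22, 0 and 0.15. H1-5 was at 0.68, 0.42 and 0.48 against 0, 0.28 and 0. These members made 391 counts in the 3 TPC-1 NC libraries and 141 in the 3 K1 NC libraries. With no filter on low counts, 63 members entered the test, and 7 were called higher (11.1%) and 16 lower (25.4%). Of all 38290 genes, 34.2% were called, 19.4% higher and 14.8% lower, so the share called in either direction, 36.5% of the members, was near the background. Of these 16, 10 were outside the filtered test, among them H1-5, H3C3, H3C8 and H4C3.

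The siRNA libraries gave a second set of K1 and TPC-1 libraries for the same question. In K1 with TRIM35 siRNA against TPC-1 with TRIM35 siRNA, 8 of 23 members were higher and 7 lower by edgeR, 65.2% of them beside 68.3% of all genes (35.9% higher, 32.4% lower). Of the members called, 13 were called in both comparisons with the same direction, and 22 of 23 had the same sign. The matching shares over all genes were not computed, so these counts are not read as a trait of the members. H2BC7, an H2B gene, was called in the siRNA libraries alone (2.17, SE 0.68, adjusted p = 0.00981) and stood at 0.35 (SE 0.66) in the NC libraries, where it turned to -0.34 without K1 NC 3. H4C5 was called in the NC libraries alone and stood at -0.26 (SE 0.60) in the siRNA libraries. H4C9 was called in both, and its siRNA value of 2.15 was 3.15 without TPC-1 siRNA 1. Over all 12 libraries, 5 tested members lay higher in every K1 library than in every TPC-1 library and 3 lower, 34.8% of the 23 beside 59.1% of all genes tested.

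**Figure D3:**
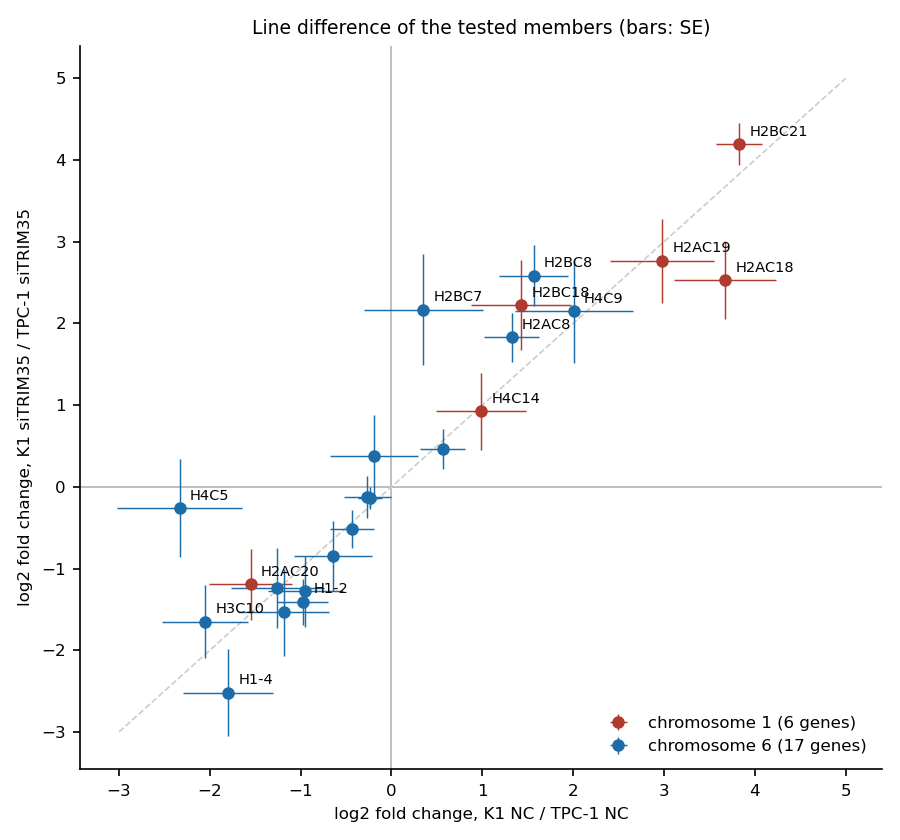
Each point is 1 of the 23 tested members; the x axis is its log2 fold change between K1 and TPC-1 in the NC libraries and the y axis the same in the siRNA libraries, with SE bars, the dashed line marks equal values, and colour marks the chromosome. H2BC21 lies at 3.83 and 4.2, and 22 of 23 members have the same sign on both axes, a share not computed over all genes.

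TRIM35 siRNA was the study's intervention, and no member passed for it. As given above, TRIM35 itself fell little and did not pass in either line, so a larger loss of TRIM35 was not tested here. By edgeR, 0 of 23 members were called in TPC-1, in K1 or for the difference between the lines, beside 0.0% of all 17447 genes in each. At an unadjusted p under 0.05 there were 0 members in TPC-1, 2 in K1 and 1 for the difference, and 337, 136 and 301 genes in all. DESeq2, limma and the other settings also called 0 members. The median log2 fold change was 0.09 in TPC-1 and 0.25 in K1, beside 0.00 and -0.004 over all genes. The 95% interval stayed within a 2-fold change either way for 10 members in TPC-1 and 7 in K1, so larger changes of the others are not excluded by their intervals.

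The 2 K1 members with an unadjusted p under 0.05 were H2BC8 and H4C5. In H2BC8, a gene of the H2B class, NC gave 3.21, 2.55 and 5.14 FPKM and siRNA 7.44, 7.66 and 3.75, so siRNA 3 lay inside the NC range (log2 fold change 0.80, 95% interval 0.11 to 1.49). H4C5 gave 0.42, 0.11 and 0.44 with NC and 1.59, 1.27 and 0.26 with siRNA (1.65, 95% interval 0.11 to 3.19), and siRNA 3 again lay inside the NC range. The difference of the effects for H4C5, K1 minus TPC-1, was 2.07 (95% interval 0.11 to 4.04, edgeR adjusted p = 0.999919). In TPC-1 the smallest p belonged to H2AC18, at 1.26 (95% interval -0.22 to 2.75).

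Several members differed among the K1 libraries of 1 treatment. H2BC21, H2BC8 and H2BC7 were highest in NC 3, siRNA 1 and siRNA 2, and lower in NC 1, NC 2 and siRNA 3. H2BC7 gave 0.55, 1.13 and 2.66 FPKM with NC and 3.91, 2.81 and 0.91 with siRNA. The same 3 libraries held the lowest RN7SL1 values. Over all 17447 genes tested, log2 CPM deviations from the group mean also went together in these libraries. NC 3 correlated with siRNA 1 at 0.453 and with siRNA 2 at 0.32, and NC 1 with siRNA 3 at 0.577. NC 2 correlated little with siRNA 1, 2 and 3 (0.0995, 0.0864 and -0.125). The split was thus not particular to these members, and its cause was not tested. H2AC6, by contrast, was steady, at 5.73, 6.19 and 7.14 with NC and 7.62, 7.67 and 7.48 with siRNA. Among the 23 tested members, groups without overlap were seen for 3 in TPC-1 (H2AC6 and H2AC18 higher, H2BC11 lower) and 3 in K1 (H2AC6, H2AC8 and H2AC19 higher), 13% each, beside 4.6% and 4.74% of all genes tested. None of these passed the test.

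**Figure D4:**
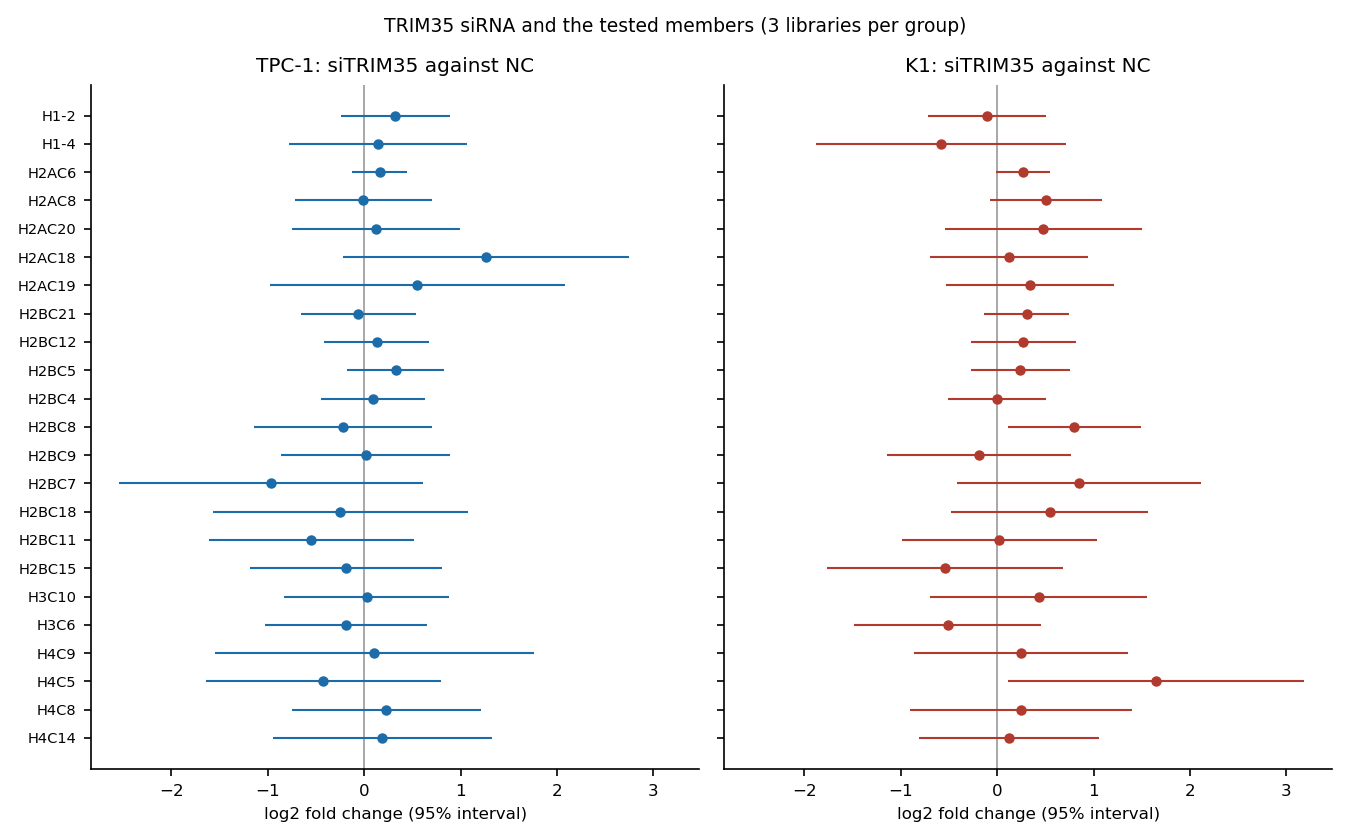
Log2 fold change of TRIM35 siRNA against NC (x axis) for each of the 23 tested members (y axis, by class and level) in TPC-1 and K1; points are fitted values, bars 95% intervals from 3 libraries a group. The intervals of all members include 0 in TPC-1, and in K1 only those of H2BC8 (0.11 to 1.49) and H4C5 (0.11 to 3.19) do not.

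Among 6 cluster genes with known polyadenylated mRNAs, the K1 NC to TPC-1 NC comparison gave 1 higher, H2BC21, and 1 lower, H1-2, where 35.8% of all genes tested were higher and 32.1% lower. The other 4 did not pass: H2AC6 -0.24 (SE 0.13), H2BC12 -0.27 (SE 0.26), H2BC5 -0.43 (SE 0.24) and H2BC4 0.56 (SE 0.25) by edgeR on the log2 scale. H2BC5 stood at 5.35, 3.75 and 4.14 FPKM in TPC-1 NC and 2.99, 4.08 and 3.41 in K1 NC, and H2BC12 at 5.03, 5.62 and 3.99 and at 3.96, 5.12 and 3.87, and in both cases the groups overlapped. The list's median was -0.25, beside 0.06 over all genes.

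Variant histone genes, most of them outside the clusters and expressed through the whole cell cycle or in special settings, also went both ways: of 14 tested variant histones 4 were higher and 6 lower in K1 NC (median -0.07). The shares over all genes tested were 35.8% higher and 32.1% lower. CENPA, the centromeric H3, was lower in K1 NC, at 4.05, 3.74 and 3.5 FPKM beside 33.8, 26.2 and 25.0 (-3.0, SE 0.23), and H2AZ1, the main H2A.Z gene, was at 98.0, 88.1 and 68.9 beside 484, 461 and 373 (-2.46, SE 0.24). Both passed the edgeR test.

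Genes of the histone locus and of histone mRNA 3′ end processing were mostly lower in K1 NC: 14 of 24 lower and 4 higher, with a median of -0.45. Of all genes tested, 32.1% were lower and 35.8% higher. The smallest p-values belonged to ERI1, the exonuclease that trims histone mRNA ends (-2.19, SE 0.14), NCBP1, of the cap-binding complex (-1.69, SE 0.13), and CCNE2, a cyclin E that activates CDK2 (-4.12, SE 0.33), all by edgeR. Chosen after their values were seen, SLBP, which binds the stem-loop, was at 79.3, 65.8 and 59.4 FPKM in TPC-1 NC and 28.1, 27.7 and 24.0 in K1 NC (-1.45, SE 0.16), and NPAT, the cluster's coactivator, was at 6.0, 6.87 and 8.64 and at 8.98, 10.4 and 12.7 (0.47, SE 0.19).

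Histone chaperones and S phase genes were lower in K1 at larger medians than the cluster members. Of 21 chaperones 15 were lower and 0 higher (median -1.69), led by CHAF1B and CHAF1A, of the chromatin assembly factor that loads H3 and H4 behind the replication fork (-3.04, SE 0.16, and -2.66, SE 0.17), and HJURP, the CENPA chaperone (-2.70, SE 0.16). All 20 S phase genes were lower (median -2.43). Both counts stand beside 32.1% lower and 35.8% higher over all genes tested. CCNA2, the S phase cyclin A, was at 75.9, 88.2 and 88.8 FPKM in TPC-1 NC and 8.49, 9.75 and 9.21 in K1 NC (-3.30, SE 0.14), and MCM4 and MCM5, of the replicative helicase, stood at -3.33 (SE 0.16) and -2.87 (SE 0.14) by edgeR. The medians of the lists are set beside -0.24 for the 23 cluster members, and the difference between lists was not tested. For the TRIM35 siRNA comparisons, 0 genes of each of these lists were called by edgeR.

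**Figure D5:**
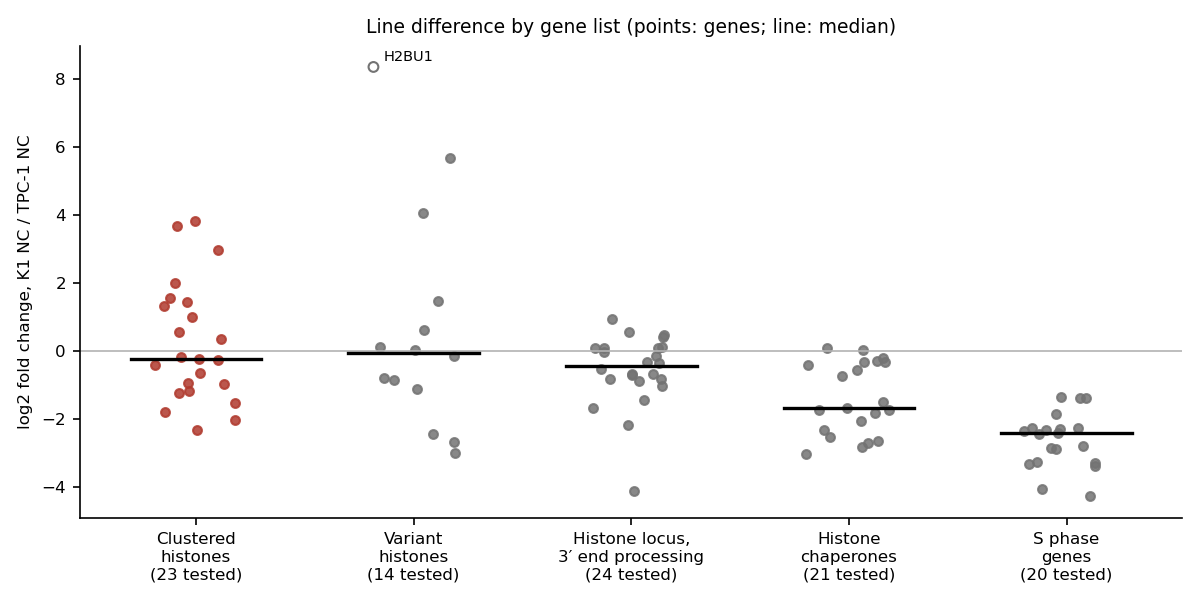
Log2 fold change between K1 NC and TPC-1 NC (y axis) for the tested genes of 5 lists (x axis); points are genes, the line is the list's median. The open point, H2BU1, had no count in TPC-1 NC, so its fitted value is not a measured fold. The median is -0.24 for clustered histones, -1.69 for chaperones and -2.43 for S phase genes.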

How the data were processed

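Counts and FPKM values came from 1 table the authors deposited with 61806 genes and 12 libraries. Per the submitters' processing notes, cutadapt 1.9.1 and build hg38 were used; the aligner, the counter, the annotation release and the poly(A) or ribosomal RNA selection are not given in the sources read for this text. Per the labels' protocols, cDNA was made with random primers. The deposited raw counts were whole numbers, and the deposited FPKM values divide them by exonic size and library total. The deposited exonic sizes differ from those of GENCODE 29 for all but 4 members held by both, such as H2BC8, with 489 bases against 1534. The size used as divisor scales a member's FPKM and not its fold change. A different gene model can also change which reads are counted, such as those past the stem-loop, and so the fold change. This was not tested.

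Counts were tested with edgeR 4.0.16 (R 4.3.3), with TMM factors, filterByExpr and the quasi-likelihood F test over all 12 libraries with 1 mean per group; p-values were adjusted by Benjamini-Hochberg over 17447 genes and called under 0.05. The script was checked on simulated counts. CPM are counts per 1000000 in the library. DESeq2 1.42.0 and limma 3.58.1 on log2(FPKM + 0.1) were alternatives. Sums by class have no test. Members were named by level within a class, by the size of the line difference and by the smallest p for siRNA; H2BC9, H2BC11, H2BC18, H3C6 and H4C14 lie outside that rule wherever shown. Listed genes were named by the smallest p, except RN7SL1, SLBP, NPAT and the thyroid markers, chosen after their values were seen; 1 gene that this rule names is not reported here. The members and lists were chosen with earlier results of these data known. The title of 1 TPC-1 NC library gives another line name, its other labels TPC-1; it was kept there.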

Additional observations from a re-analysis of the deposited data

How the results depend on the processing

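Every siRNA comparison kept 0 members called under each alternative run. In K1 NC against TPC-1 NC, 16 members were lower with no filter on low counts (63 tested) in place of 7. In the siRNA libraries, 16 were lower with no filter, 3 with limma on log2(FPKM + 0.1) and 4 with limma on log2(FPKM + 1), which tested 18 members, in place of 7. Leaving out 1 library gave 5 to 8 higher and 6 to 9 lower members in the NC libraries, and 8 to 10 higher and 4 to 8 lower in the siRNA libraries, the lowest without K1 siRNA 2. A log2 fold change turned sign in 2 cases: H2BC7 in the NC libraries, -0.34 without K1 NC 3 (up to 0.74 without K1 NC 1), and H4C5 in the siRNA libraries, 0.16 without K1 siRNA 3 (down to -0.63 without K1 siRNA 1). The cause of these changes was not tested, except that no filter and limma changed how many members were tested. Same-numbered NC and siRNA libraries deviated together at correlations of 0.379, 0.0857 and 0.406 in TPC-1 and -0.491, 0.0864 and -0.526 in K1. Every TPC-1 library correlated best with its own number, though weakly for number 2, and no K1 library did. The numbers were not taken to pair the libraries in the main test, in TPC-1 as in K1. With the replicate number as a block, 0 members were called for siRNA in each line and for the difference, 7 higher and 6 lower in the NC libraries and 8 higher and 6 lower in the siRNA libraries, where H4C8 stood at -1.21 (adjusted p = 0.0624) and -1.17 (adjusted p = 0.0625). Low counts limit several members: H1-4, H2AC18, H2AC19, H2BC7 and H4C5 had as few as 1 count in a library.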
